A study of Mus musculus with 11 samples.

Results

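The mitochondrial genome is a small circle of DNA that codes for subunits of the respiratory chain and of ATP synthase, together with the rRNAs and tRNAs needed to translate them inside the organelle. The genes described here are the rows of the count table whose symbol starts with mt-, 37 of 55487 gene IDs after repeated rows were dropped. By their annotated biotype they are 13 mRNAs, 2 rRNAs and 22 tRNAs. They were measured in macrophages grown from the bone marrow of C57BL/6J mice aged 2 to 5 months, differentiated for 5 to 6 days in CMG-conditioned medium. The compared groups were 4 libraries of cells given CYR61, a secreted matrix protein, at 0.5 µg/ml for 24 h, and 7 libraries of control cells given 0 µg/ml. The labels do not say whether libraries of a group came from separate mice or cultures, so p-values here reflect only how these libraries vary, and that variation may be technical.

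Both strands of the mitochondrial circle are transcribed as long precursors, which are cut at the tRNAs that stand between most of the mRNAs and rRNAs. Most of the genes are read in one direction, whereas mt-Nd6, which codes for a subunit of complex I, is the only mRNA read in the other. In the GENCODE M21 annotation of the GRCm38 build, 12 mRNAs lie on the plus strand and 1 on the minus strand, with 14 tRNAs on the plus strand and 8 on the minus strand. Nuclear genes supply the polymerase, the processing enzymes and most subunits of the same complexes.

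The sequences below show where neighbouring or copied genes share letters and where they differ. By its letters, a read that lies wholly within shared sequence cannot be given to 1 gene. The overlaps of 14 and 43 bases shown here are shorter than a read of 150 bases. The last bases of mt-Nd6 (chrM:13552-13611, minus strand) and mt-Nd5 (chrM:13506-13565, plus strand) lie on opposite strands of the same DNA over 14 bases, in capitals. The labels do not state whether counting used strand, and without strand the genes cannot be told apart over these 14 bases. Without strand, plus-strand RNA opposite any part of mt-Nd6 (chrM:13552-14070) would also count as mt-Nd6, and this was not tested. On the plus strand, the last 43 bases of mt-Atp8 are also the first of mt-Atp6, and are in capitals in its line (chrM:7910-7969). All are taken from the GENCODE M21 transcripts and written 5′ to 3′.
mt-Nd6, last bases: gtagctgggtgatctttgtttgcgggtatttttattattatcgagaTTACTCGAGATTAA
mt-Nd5, last bases: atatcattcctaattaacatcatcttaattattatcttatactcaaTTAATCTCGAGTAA
mt-Atp8, last bases: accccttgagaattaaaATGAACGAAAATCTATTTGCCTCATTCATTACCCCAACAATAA

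Pieces of the mitochondrial genome also stand in the nucleus as pseudogenes. The next lines pair a stretch of mt-Nd3 (chrM:9459-9509) and of mt-Co1 (chrM:6381-6431), both on the plus strand, with their nearest copies on chromosome 1, and capitals mark the bases that differ. Counting from 1 at the first base of the mitochondrial gene, T3C is the only difference between mt-Nd3 and Gm28438 over 345 aligned bases. Set end to end without gaps, Gm29216 differs from mt-Co1 at 6 of 492 aligned bases, which are T1056A, C1057T, A1059G, A1060G, C1062A and A1066T. All lie near the start of the copy, which is set at base 1054 of mt-Co1. By blastn the match covers 483 bases with 1 mismatch and leaves the rest of the copy out.
mt-Nd3: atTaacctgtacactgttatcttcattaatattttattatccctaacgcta
Gm28438: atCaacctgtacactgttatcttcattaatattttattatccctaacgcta
mt-Co1: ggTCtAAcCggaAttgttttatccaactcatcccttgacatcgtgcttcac
Gm29216: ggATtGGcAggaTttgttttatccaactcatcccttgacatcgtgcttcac

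Libraries held 17390272 to 20760322 counts in the CYR61 group and 14912123 to 21047654 in the control group. The macrophage markers summed to 24578 to 26824 CPM, the counts scaled to a common library total, in CYR61 libraries, against 22265 to 23584 CPM in controls. By the test used below 5 of 8 were higher and 0 lower, where 5.33% of all genes tested were higher and 2.63% lower. Markers of the other cell types listed were low, with B cell markers at 0.709 to 0.941 CPM in CYR61 libraries and 0.59 to 0.95 CPM in controls, where Ebf1 and Pax5 were at 0 in every library. Megakaryocyte and erythroid markers summed to 9.3 to 11.9 CPM in CYR61 libraries, against 5.51 to 9.15 CPM in controls, with 1 of 2 tested markers higher. Neutrophil markers summed to 37.8 to 46.1 CPM in CYR61 libraries and 40 to 46.5 CPM in controls, with Ly6g at 0 and 1 of 2 tested markers higher. The part of these shifts in the results was not tested. Mitochondrially encoded genes took 0.953 to 1.39% of all counts in CYR61 libraries and 1.24 to 1.5% in controls.

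After 24 h of CYR61, mt-Nd6 RNA was lower, and mt-Nd6 was the 1 mitochondrially encoded gene that passed the test. With all libraries, the fitted changes of the other mRNAs and rRNAs of the organelle also lay under 0 but did not pass. mt-Nd6 had 124, 159, 169 and 153 CPM in CYR61 replicates 1 to 4, against a lowest of 163, a median of 189 and a highest of 213 CPM in the 7 controls. All 4 CYR61 libraries lay under the control mean, and the groups overlapped, since CYR61 replicate 3 was above the lowest control. The means were 151 ± 19.4 CPM in CYR61 cells and 189 ± 18.6 CPM in control cells (SD, n = 4 and 7). The log2 fold change was -0.32 ± 0.08 (SE), a fall of 19.7% with an adjusted p of 0.0153 by edgeR's quasi-likelihood test with Benjamini-Hochberg adjustment over 15135 genes. In bulk RNA, fewer cells of a type and less RNA per cell cannot be told apart.

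Of the 37 genes, 15 passed the filter on low counts, and 1 of these 15, or 6.67%, passed the threshold of 0.05. Over all genes tested 7.96% passed, 5.33% higher and 2.63% lower, so the share among the mitochondrial genes was near that of the whole table. The fitted changes of all 15 lay under 0, which was so for 52.5% of all genes tested. The median of the 13 mRNAs was -0.11 on the log2 scale, beside -0.01 for all genes. The direction rested on CYR61 replicate 1: without it 7 of the 15 lay under 0 and the median of the 15 was 0.009, where it was -0.113 with all libraries. With CYR61 replicates 1 and 4 both left out, mt-Nd6 had a log2 fold change of -0.2 and an adjusted p of 0.186 and no member passed. Without CYR61 replicate 1 alone its adjusted p was 0.047, and it was past 0.05 in 23 of 24 alternatives, from 0.000527 to 0.047.

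**Figure D1:**
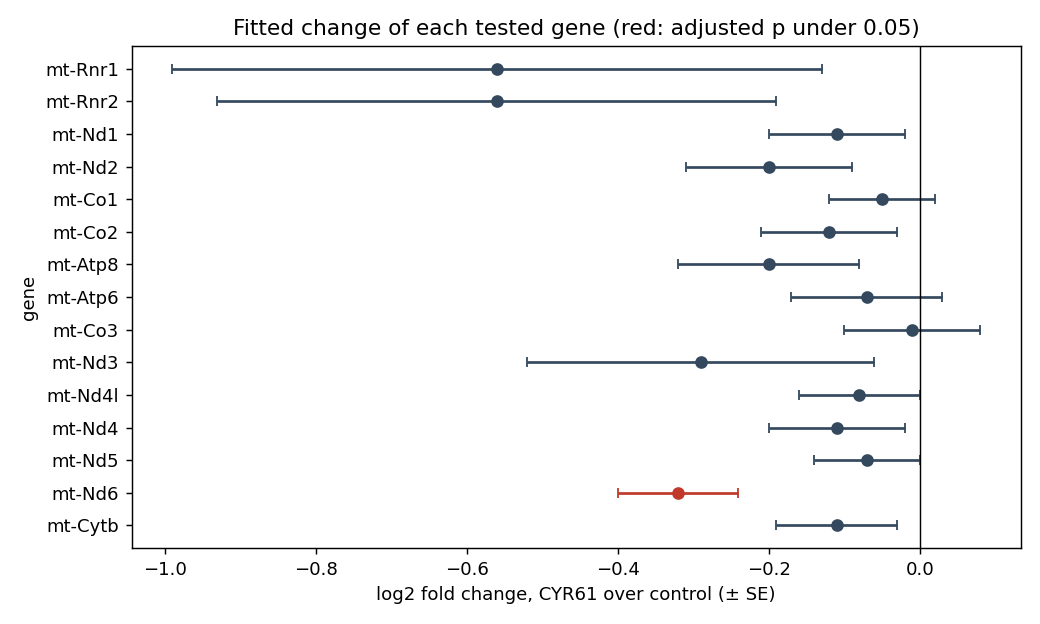
Log2 fold change of CYR61 over control for the 15 tested genes, in order along the mitochondrial genome, with bars for the SE of the fit. mt-Nd6, in red, lies at -0.32 and is the gene past the threshold, while both rRNAs lie farther from 0 with wider bars.

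The level of mt-Nd6 was also set against the other mitochondrial mRNAs of the same library, which cancels a change that all of them share. It had 1.33, 1.22, 1.27 and 1.14 counts per 100 counts of the other 12 mRNAs in CYR61 replicates 1 to 4, against a lowest of 1.37 and a highest of 1.57 in controls. On this scale the groups did not overlap. Per 100 counts of mt-Nd5, its neighbour on the opposite strand, it had 11.5 to 12.9 counts in CYR61 libraries and 13.2 to 15.4 in controls, again with no overlap. Per 100 counts of mt-Cytb, which follows it on the circle, the ranges were 14 to 16.6 in CYR61 libraries and 15.6 to 18.8 in controls, and these overlapped. Since the use of strand in counting was not stated, plus-strand RNA opposite mt-Nd6 may be among its counts.

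Among the 13 mRNAs, each set against the other 12, the groups failed to overlap for 2, mt-Nd6 and mt-Co1. mt-Co1, the catalytic subunit of complex IV, ran the other way. It had 99.6, 98, 98.4 and 96.9 counts per 100 counts of the other 12 in CYR61 replicates 1 to 4, against 92.9 to 96.7 in controls. Its own CPM did not pass the test, with a log2 fold change of -0.05 ± 0.07 and an adjusted p of 0.773 by edgeR. These ratios were chosen after their values were seen and carry no test. Across all genes, 7.16% had groups that did not overlap in CPM, 4.65% with CYR61 above and 2.5% with CYR61 below, while for the 15 members the CPM of the groups overlapped in every case.

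**Figure D2:**
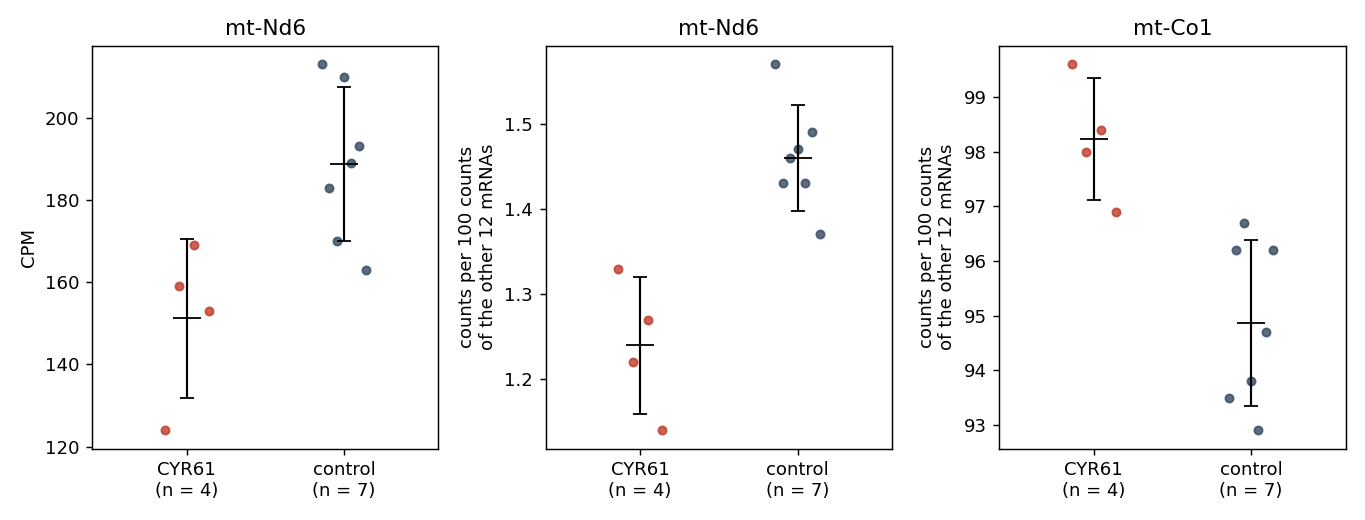
mt-Nd6 in CPM, and mt-Nd6 and mt-Co1 in counts per 100 counts of the other 12 mitochondrial mRNAs, with CYR61 libraries left of control libraries (1 point each) and bars for mean and SD. The CPM of mt-Nd6 overlaps between groups, whereas its ratio stays at or under 1.33 in CYR61 libraries and at or above 1.37 in controls. The vertical axes do not start at 0.

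The base composition of mt-Nd6 is that of the opposite strand. Its transcript holds 28.1% G and 5.97% C, where mt-Co1 holds 16.1% G and 23.8% C and mt-Cytb 12.2% G and 26.9% C. No 150-base window of it, the read length given by the labels, was found letter for letter in a nuclear transcript, and its count was whole in all 11 libraries. In the authors' deposited table it had a log2 fold change of -0.262 and an adjusted p of 0.0459. Of the 13 mitochondrial mRNAs in the authors' deposited table it was the 1 under 0.05. That comparison used the same 11 libraries, so it is not independent of the fit used here. In it the log2 fold changes of mt-Co3 (0.0363), mt-Co1 (0.00415) and mt-Atp6 (0.00374) lay above 0, and those of the other mRNAs under 0.

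The other subunits of complex I, the entry point of electrons from NADH, did not pass. mt-Nd2 had 150, 236, 237 and 238 CPM in CYR61 replicates 1 to 4, against 211 to 287 CPM with a median of 238 in controls. Its log2 fold change of -0.2 ± 0.11 had the lowest adjusted p among the other 14 members, 0.295 by edgeR. mt-Nd1, mt-Nd4, mt-Nd4l and mt-Nd5 had log2 fold changes of -0.11, -0.11, -0.08 and -0.07. In each of these, CYR61 replicate 1 was the lowest of the 11 libraries, for example at 965 CPM for mt-Nd5, where the lowest control had 1217 CPM.

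No subunit of complexes III and IV or of ATP synthase passed either. mt-Cytb, the mitochondrial subunit of complex III, had 745, 1105, 1090 and 1096 CPM in CYR61 replicates 1 to 4, against 1004 to 1182 CPM with a median of 1081 in controls. For complex IV, mt-Co1 had 4725, 6544, 6700 and 6710 CPM in CYR61 libraries, against 5833 to 7014 CPM with a median of 6402 in controls. CYR61 replicates 2 to 4 lay inside the control range for both genes, and replicate 1 lay under it. mt-Co2 and mt-Co3 had log2 fold changes of -0.12 ± 0.09 and -0.01 ± 0.09. mt-Atp6 and mt-Atp8, the mitochondrial subunits of ATP synthase, had -0.07 ± 0.1 and -0.2 ± 0.12.

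Summed over the 13 mRNAs, CYR61 replicates 1 to 4 had 9468, 13223, 13510 and 13635 CPM, against 11867 to 14492 CPM with a median of 13166 in controls. CYR61 replicate 1 was the lowest library for 12 of the 13 mRNAs, and the other 3 lay inside the control range. The difference of the means was -664 CPM, and 333 CPM without that library. The spread of these mRNAs between controls was wide for their level, with a median coefficient of variation of 9.54%, where the median was 3.29% over the 1871 tested genes that averaged 100 CPM or more.

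Per length, mt-Co1 was the highest of the 13 mRNAs, at 3993 ± 626 CPM per kb in CYR61 cells and 4133 ± 262 in control cells (SD, n = 4 and 7). mt-Co2 came next, at 1170 ± 170 CPM per kb in CYR61 cells and 1271 ± 138 in control cells. mt-Nd3, a small subunit of complex I, was the lowest, at 68.2 ± 24.8 CPM per kb in CYR61 cells and 82.7 ± 24.6 in control cells. mt-Atp6, mt-Cytb and mt-Co3 came after mt-Co2, with ranges that overlapped in each group. With the nuclear copies added, mt-Co2 had 2003 CPM per kb in CYR61 cells and 2077 in control cells. On that scale mt-Atp6 had 1441 and 1583, mt-Co3 1289 and 1323, and mt-Cytb 882 and 952, in the same order of groups. The levels of mt-Co2, mt-Atp6 and mt-Co3 thus depend on how counts were split with their copies. By complex, subunits of complex IV took 61.4 ± 0.429% of mitochondrial mRNA counts in CYR61 cells and 60.4 ± 0.626% in control cells, and those of complex I took 25 ± 0.221% in CYR61 cells and 25.7 ± 0.376% in control cells.

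**Figure D3:**
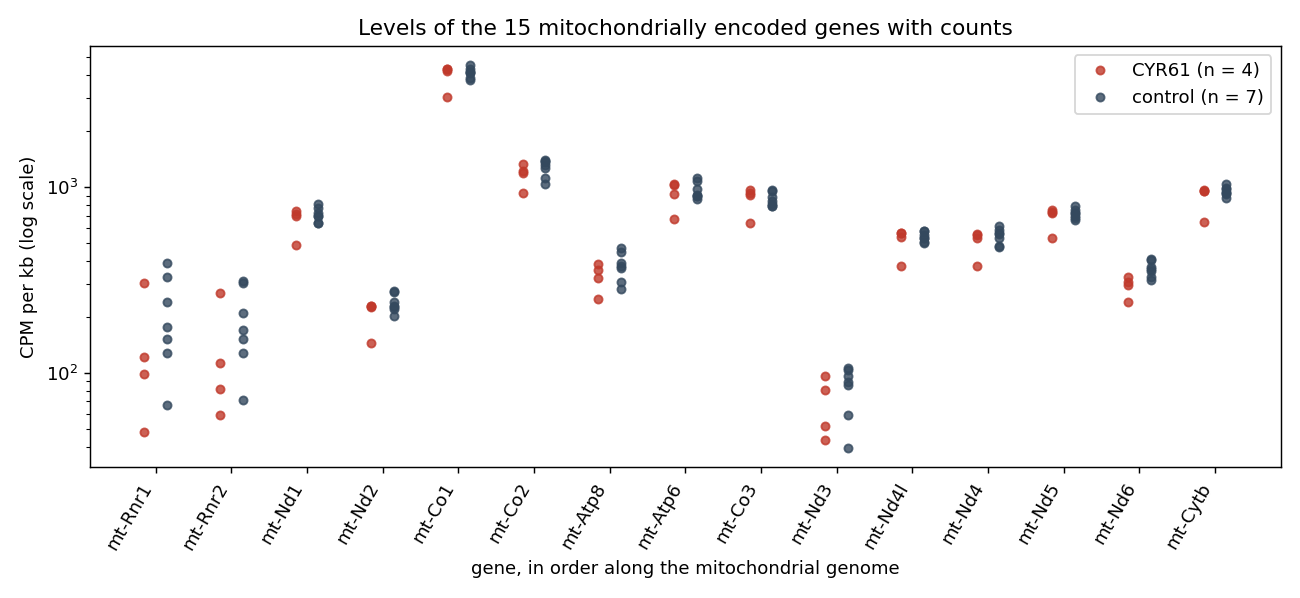
CPM per kb of the 15 genes with counts, on a log axis, in order along the mitochondrial genome, with 4 CYR61 libraries left of 7 control libraries (1 point each). mt-Co1 is highest and mt-Nd3 the lowest mRNA in both groups, and the rRNAs are the most spread.

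The level given to several mRNAs depends on their nuclear copies. Of the 150-base windows, 99.4% of mt-Atp6, 99.4% of mt-Co2, 99.8% of mt-Co3, 98% of mt-Nd4l, 97% of mt-Nd3, 59.2% of mt-Nd4 and 23.6% of mt-Co1 were also found in a nuclear transcript, and 0 of the others. Gm28661, a copy of mt-Co2 at 100% identity over 681 bases, took 33.2 to 43.8% of the counts of the pair. Gm28438 took 0 to 56.3% of the counts it shares with mt-Nd3, so the counts of these genes are uncertain. None of the copies passed the test. In the authors' deposited table, Gm29216 had a log2 fold change of 0.247 and an adjusted p of 0.0161, where the fit used here gave 0.19 ± 0.09 and 0.24 by edgeR.

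mt-Nd3 was the gene most spread by this. Alone it had 17.9, 15.2, 33.5 and 28.2 CPM in CYR61 replicates 1 to 4, against 13.7 to 36.9 CPM in controls. With Gm28438 added it had 23.3, 33.1, 33.5 and 30.7 CPM in CYR61 libraries, against 29.1 to 45.7 CPM in controls. The coefficient of variation of the controls was 15.2% with the copy added and 29.8% without it. The log2 fold change was -0.29 ± 0.11 with the copy added, with an adjusted p of 0.12 by edgeR, and the call of mt-Nd6 was kept.

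**Figure D4:**
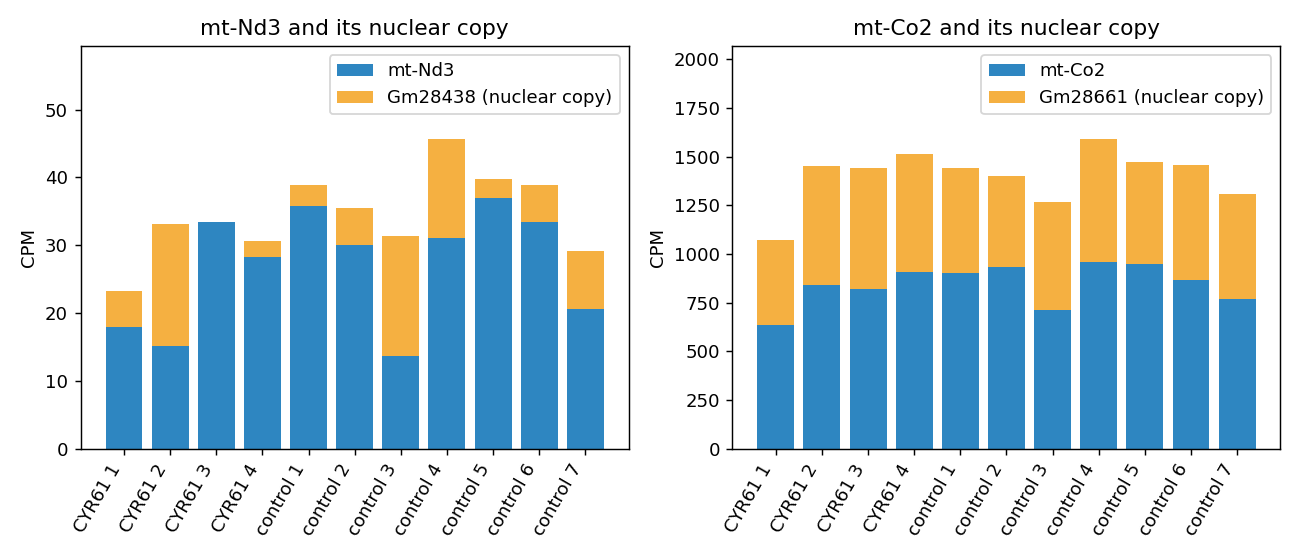
CPM of mt-Nd3 and of mt-Co2 in each library with the nuclear copy of each stacked on top, CYR61 libraries first. For mt-Nd3 the split moves from 0 to 56.3% between libraries, while the stacked height varies less.

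The 2 mitochondrial rRNAs, which build the small and large subunits of the organelle's ribosome, varied most. mt-Rnr1 had 45.6, 94.2, 116 and 291 CPM in CYR61 replicates 1 to 4, against 64.1 to 373 CPM with a median of 168 in controls. mt-Rnr2 had 93.3, 130, 179 and 424 CPM in CYR61 libraries, against 113 to 494 CPM with a median of 267 in controls. The groups overlapped for both. The log2 fold changes were -0.56 ± 0.43 and -0.56 ± 0.37, with adjusted p of 0.512 and 0.442 by edgeR. Without CYR61 replicate 4 they were -1.24 and -1.18, with adjusted p of 0.0972 and 0.0536 by edgeR. Without CYR61 replicate 1 they were -0.27 and -0.31, with adjusted p of 0.774 and 0.699 by edgeR. Leaving out each control in turn gave -0.72 to -0.34 for mt-Rnr1 and -0.7 to -0.4 for mt-Rnr2, with the values nearest 0 in the fits without control replicate 2. With replicate number as a block, on replicates 1 to 4 alone, they were -1.22 and -1.14, with adjusted p of 0.0973 and 0.0784 by edgeR. Summed, the rRNAs had 796, 868, 561, 436, 384, 326 and 177 CPM in control replicates 1 to 7. In CYR61 replicates 1 to 4 they had 139, 224, 295 and 715 CPM. The link to replicate number was not tested.

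Ribosomal RNA was removed from these samples before sequencing, so its counts were taken after that step. Genes annotated as cytosolic rRNA had 2480, 3254, 5730 and 24775 CPM in CYR61 replicates 1 to 4, against 2527 to 7934 CPM in controls. CYR61 replicate 4 was the highest of all libraries for cytosolic rRNA and the highest of the CYR61 libraries for both mitochondrial rRNAs. Lars2, the mitochondrial leucyl-tRNA synthetase, named here after its values were seen, had 138, 197, 330 and 1530 CPM in the same 4 libraries, against 152 to 426 CPM in controls, with an adjusted p of 0.14 by edgeR. The part of rRNA removal in these values was not tested.

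**Figure D5:**
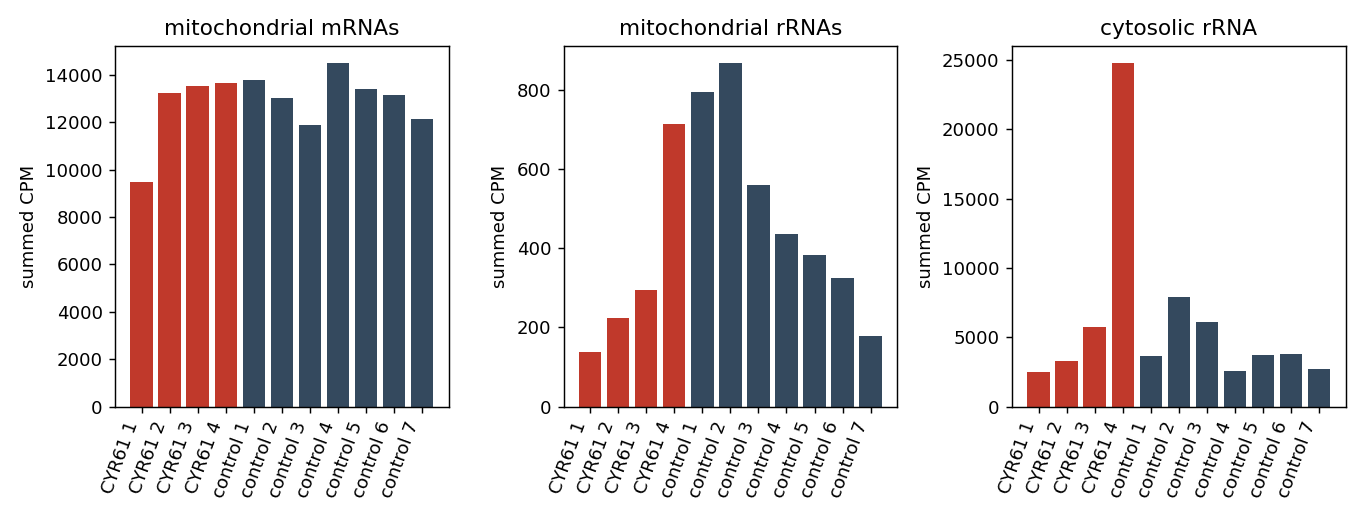
Summed CPM of mitochondrial mRNAs, of mitochondrial rRNAs and of cytosolic rRNA in each library, 4 CYR61 libraries (red) left of 7 controls (dark). CYR61 replicate 1 has the lowest mRNA sum at 9468 CPM, and CYR61 replicate 4 has 24775 CPM of cytosolic rRNA.

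All 22 tRNAs, which are 59 to 75 bases long, were listed at 0 in every library of both groups. A count of 0 allows up to 0.143 to 0.201 CPM, 3 counts of a library's total, which covers counting error only. mt-Te, the tRNA for glutamate, is shown because it lies beside mt-Nd6 on the minus strand (chrM:14071-14139) and is shorter than a read.
mt-Te: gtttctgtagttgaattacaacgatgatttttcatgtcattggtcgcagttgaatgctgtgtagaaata
Of 974 gene models of at most 75 bases in the table, 10, or 1.03%, had any count, against 28.2% of those of 150 to 300 bases. An exact 0 can be a failed estimate, and no fold is given for the tRNAs.

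Nuclear genes that maintain, transcribe, process and translate mitochondrial RNA were tested by the same fit. Of 104 listed, 102 were tested and 0 passed in edgeR, DESeq2 or limma-voom. Among all genes 1204, 1295 and 1165 passed in these tools, which is 7.96% in edgeR. In the lists, 12, 7 and 12 genes had an unadjusted p under 0.05 in these tools. The share of all genes under that value was not counted, so these counts cannot be read as many or few. Their median log2 fold change was -0.01, as for all genes. Tfam, which packs mitochondrial DNA and starts its transcription, had 13.7 ± 0.504 CPM in CYR61 cells and 14.4 ± 0.885 in control cells (SD, n = 4 and 7). Lrpprc, which stabilises mitochondrial mRNAs, had 57.4 to 58.4 CPM in CYR61 libraries and 52.6 to 56.3 CPM in controls, with no overlap and an adjusted p of 0.0907 by edgeR.

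None of the other named genes of these lists passed the threshold. Tfb2m, a transcription factor of the organelle, had a log2 fold change of -0.14 ± 0.08 and Mterf3 -0.07 ± 0.08. Hsd17b10, a subunit of the enzyme that cuts the 5′ ends of tRNAs, had 0.16 ± 0.05, and the elongation factor Tufm had 0.14 ± 0.05. The tRNA synthetases Fars2 and Vars2 had 0.21 ± 0.07 and -0.24 ± 0.09. Myc, a regulator of growth genes, had -0.5 ± 0.16 at 1.56 ± 0.27 CPM in CYR61 cells and 2.21 ± 0.299 CPM in control cells, and Esrra had 0.14 ± 0.05. Ssbp1 and Cdk5rap1 had -0.08 ± 0.06 and -0.18 ± 0.09, and Endog and Taco1 0.22 ± 0.11 and 0.2 ± 0.09.

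Among the nuclear subunits of the same complexes, calls were made in 1 direction. Of 71 tested, 12 rose and 0 fell, with a median log2 fold change of 0.078, beside 5.33% of all genes higher and a median of -0.008. By complex, 1 of 36 rose in complex I, 2 of 9 in complex III, 5 of 11 in complex IV and 4 of 15 in ATP synthase. The count was 5 with library size alone, where the median of all genes was -0.0522, and 6, 7 and 7 without CYR61 replicate 2, 3 or 4. Without these replicates 788, 892 and 976 of all genes passed, against 1204 with all libraries. The count was 14 in DESeq2, 11 in limma-voom and 14 with library quality weights. It was 14 with the replicate block, 16 on replicates 1 to 4 without a block and 15 without control replicate 7. In each of these fits 0 fell.

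The changes of these subunits were small. Ndufs3 of complex I had 34 to 37.6 CPM in CYR61 libraries, against 29 to 32.8 CPM in controls, with a log2 fold change of 0.21 ± 0.04 and an adjusted p of 0.00445 by edgeR. Cox5a of complex IV had 64.3 to 70.2 CPM in CYR61 libraries, against 55.9 to 62.2 CPM in controls. Atp5b, the catalytic beta subunit of ATP synthase, had 304 ± 5.79 CPM in CYR61 cells and 276 ± 7.98 CPM in control cells (SD, n = 4 and 7). In these 3 the groups did not overlap. Cyc1 and Uqcrq of complex III rose by 0.14 ± 0.04 and 0.23 ± 0.06 on the log2 scale, and Cox5b, Cox8a and Cox7b of complex IV by 0.18, 0.14 and 0.23. Atp5g3, Atp5a1 and Atp5o of ATP synthase rose by 0.19, 0.12 and 0.17. None of the mitochondrially encoded subunits of the same complexes passed as higher. Their SEs ran from 0.07 (mt-Co1 and mt-Nd5) to 0.23 (mt-Nd3), against 0.03 to 0.06 for the nuclear subunits named here. The named nuclear subunits had passed the test, which favours small SEs. Ndufa5 and Ndufs6, which did not pass, had SEs of 0.08, so the SEs of the 2 kinds of subunit overlap. A rise as small as those of the named nuclear subunits could be missed in the mitochondrially encoded ones.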

How the data were processed

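Libraries of total RNA were depleted of rRNA, primed at random and sequenced as paired reads of 150 bases, per the labels' protocols. The deposited table holds estimated counts per gene; the submitters' processing notes name DRAGEN, while annotation, genome build and aligner settings were not given in the sources used here, nor was the use of strand. The authors' deposited table of the comparison holds log2 values, p-values and a score (t, B and linear fold). Its log2 fold changes and p-values are quoted only where named. Of 55774 rows, 287 repeated IDs were dropped. Estimated counts were rounded, filtered with filterByExpr, scaled by TMM and tested with edgeR 4.0.16 (R 4.3.3) without covariates; 15135 genes were tested, and adjusted p under 0.05 is the threshold. CPM use the TMM-scaled totals. DESeq2 1.42.0 and limma 3.58.1 (voom) were alternatives. Scripts were tested on simulated data. Gene models, strands, sequences and coordinates come from GENCODE M21 (GRCm38), which may not be the authors' build; nuclear copies were found with blastn 2.17.0 (at least 95% identity over at least 100 bases). All members are accounted for; of each nuclear gene list, up to 4 genes that passed and averaged 1 CPM or more, or the 2 of lowest p where none passed, are named. Members and lists were chosen with earlier results of these data known. Per-sample columns matched to no sample numbered 0. No pair of libraries within a group agreed within sampling noise (chi-square per gene of 2.91 or more). Other scalings, filters, tests, the replicate block and leaving out each library were tried.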

Additional observations from a re-analysis of the deposited data

Results flagged for a closer look

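In 108 groups of values examined, 17 held a library far from the rest of its group, where chance flags about 1 group in 20. The groups are not independent, since 1 library can stand apart in many related values, so the count of 17 cannot be set against that rate. CYR61 replicate 1 was far under the other CYR61 libraries in mt-Nd2 (150 CPM), mt-Co1 (4725 CPM), mt-Nd4 (516 CPM), mt-Nd5 (965 CPM), mt-Cytb (745 CPM), mt-Nd4l (111 CPM) and the summed mitochondrial mRNAs (9468 CPM). It was also far under them in 2 nuclear copies, Gm10925 (226 CPM) and Gm28661 (433 CPM), and far above them in Esrra (47.6 CPM). CYR61 replicate 4 was far above the other CYR61 libraries in cytosolic rRNA (24775 CPM), Lars2 (1530 CPM), Tufm (47 CPM, where the others had at most 42.5 CPM) and Cyc1 (48.3 CPM). Among controls, replicate 4 was high in Gm10222 (17.5 CPM), and replicate 1 was low in Tfam (12.6 CPM) and Cox7b (33.9 CPM).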

How the results depend on the processing

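The count of 1 mitochondrially encoded gene past the threshold was 0 at an adjusted p under 0.01 and 0 with CYR61 replicates 1 and 4 left out together, an alternative chosen after seeing the data, and stayed 1 under the others run, leaving out each library included. The count of 0 nuclear genes for mitochondrial gene expression was 2 with library quality weights, 2 with library size alone, 1 with no filter, 1 on replicates 1 to 4 without a block, 1 with CYR61 replicates 1 and 4 left out, and 0 to 3 leaving out each library. The difference in summed CPM ranged from -1057 to 333 for mRNAs and from -287 to -95.3 for rRNAs leaving out each library, and was 0 for tRNAs throughout. Same-numbered libraries did not deviate together (correlations of -0.034 to 0.034); with the replicate block the mitochondrial count was 1, the nuclear count 1, and the summed differences -834, -322 and 0 CPM. Of 334 fitted changes of the other 14 members, 0 passed and 23 turned above 0. With library quality weights these were mt-Co1 (0.0012), mt-Atp6 (0.0012) and mt-Co3 (0.03). On the 8 libraries of replicates 1 to 4 alone, mt-Co3 was 0.01 with the replicate block and 0.03 with no block. With CYR61 replicates 1 and 4 left out they were mt-Co1 (0.05), mt-Atp6 (0.01), mt-Co3 (0.08), mt-Nd4 (0.0023), mt-Nd5 (0.04), mt-Cytb (0.01) and mt-Nd4l (0.04). Leaving out each library, the ranges were -0.17 to 0.0091 (mt-Nd1), -0.09 to 0.06 (mt-Co1), -0.14 to 0.05 (mt-Atp6), -0.07 to 0.11 (mt-Co3), -0.16 to 0.0099 (mt-Nd4), -0.12 to 0.03 (mt-Nd5), -0.16 to 0.01 (mt-Cytb) and -0.13 to 0.05 (mt-Nd4l). The causes were not tested.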
